A study of Mus musculus with 8 samples.

Results

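The genes described here are 44 of the 24786 genes counted in hepatic macrophages of mice, chosen by name for their work in copying DNA and dividing the cell. Of the 44, 26 act in S phase and 18 in mitosis, and all 44 passed the filter on low counts that left 15254 genes for testing. Polyadenylated RNA was sequenced from Kupffer cells, which live in the liver as its resident macrophages, and from monocyte-derived macrophages (MoM), in 8 libraries. Each cell type came from wild-type (WT) C57BL/6 mice and from C57BL/6 mice with the dnTGFβRII transgene (TG), with 2 libraries in each of the 4 groups. The transgene encodes a dominant-negative form of TGF-β receptor II. In the published line it is driven by a Cd4 promoter, so that it acts in T cells, and the mice are used as a model of cholangitis. The labels name no treatment, age or sex, and they do not say whether the libraries of a group came from separate or pooled animals. The p-values below therefore measure the spread between these libraries, which may be technical.

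Before a cell copies its DNA, the loading factors Cdc6 and Cdt1 place the Mcm2-7 helicase on replication origins. Cyclin E with its kinase then starts S phase, polymerases copy the strands behind the helicase, and enzymes of nucleotide synthesis supply the building blocks. Later, cyclins A and B drive the cell into mitosis, where Aurora and Polo kinases, the spindle checkpoint and kinetochore proteins separate the chromosomes. E2F transcription factors act on many S phase genes, while many mitotic genes carry a cell cycle homology region (CHR) near a CCAAT box, to which the MuvB complex and the factor NF-Y bind. Mature Kupffer cells are known to maintain themselves by slow local division, whereas monocytes enter the liver from the blood and mature there.

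In both genotypes most of these genes stood higher in MoM than in Kupffer cells. The mitotic genes had a median log2 fold change of 1.21 in WT and 1.35 in TG, and the S phase genes 0.38 in WT and 0.82 in TG, beside medians of 0.11 and -0.04 over all genes tested. In TG mice 6 genes passed the test, all higher in MoM, against 1.84% of all genes tested: the helicase subunits Mcm2, Mcm5 and Mcm7, the ribonucleotide reductase subunit Rrm2, the DNA methylation factor Uhrf1 and the checkpoint kinase Bub1. None of the 6 passed when any 1 of 5 libraries was left out or when only the 4 TG libraries were fitted. In WT mice no member passed the test, against 1.17% of all genes tested. Between TG and WT mice no member passed it in either cell type, and 0 of all genes tested did. In Kupffer cells 14 of 26 S phase genes had both TG libraries below both WT libraries, against 17.7% of all genes.

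Promoters are shown because the words known for E2F, CHR and CCAAT boxes can be read in them. RefSeq promoter windows on build GRCm38.p6, of 300 bases each (250 before the transcription start and 50 from it on), were at hand for 36 of the 44 genes, as 41 windows. The E2F words searched, on both strands, were TTCCCGC, the related word TTGGCGC, the word TTCGCGC and lastly the word TTGCCGC. The CHR words were TTTGAA and the variant TTCGAA, and a CCAAT box was searched by the letters of its name. E2F words can overlap each other and a CCAAT box. An E2F word lay in 18 of 27 windows of S phase genes (66.7%) and in 3 of 14 windows of mitotic genes (21.4%), against 9.57% of all 32851 windows and 12.1% of the 21263 windows of protein-coding genes. A CHR word lay in 11 of 14 mitotic windows (78.6%) and in 4 of 27 S phase windows (14.8%), against 19.2% of all windows. A CCAAT box lay in 13 of 14 mitotic windows (92.9%) and in 15 of 27 S phase windows (55.6%), against 37.4% of all windows. All 11 mitotic windows with a CHR word also held a CCAAT box, a combination found in 7.52% of all windows. These matches describe letters in a window and are not shown to be bound sites.

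Of the genes printed, Uhrf1 and Mcm5 had the smallest p among S phase members and Bub1 and Top2a the smallest among mitotic members in the comparisons of MoM with Kupffer cells. Capitals mark the words searched, and a word on the opposite strand appears as its reverse complement, such as ATTGG for a CCAAT box. Each window runs 5′ to 3′ along the gene's own strand: Uhrf1 from chr17:56303087-56303386 on the plus strand, Mcm5 from chr8:75109259-75109558 on the plus strand, Bub1 from chr2:127831810-127832109 on the minus strand and Top2a from chr11:99024140-99024439 on the minus strand. For Uhrf1 the upstream of 2 RefSeq windows is shown.
Uhrf1: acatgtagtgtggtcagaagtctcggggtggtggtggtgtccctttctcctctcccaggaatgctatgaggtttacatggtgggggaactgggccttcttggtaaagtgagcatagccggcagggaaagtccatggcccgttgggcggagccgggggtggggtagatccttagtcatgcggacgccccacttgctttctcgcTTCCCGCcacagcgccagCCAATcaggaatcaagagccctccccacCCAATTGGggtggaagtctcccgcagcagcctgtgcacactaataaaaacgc
Mcm5: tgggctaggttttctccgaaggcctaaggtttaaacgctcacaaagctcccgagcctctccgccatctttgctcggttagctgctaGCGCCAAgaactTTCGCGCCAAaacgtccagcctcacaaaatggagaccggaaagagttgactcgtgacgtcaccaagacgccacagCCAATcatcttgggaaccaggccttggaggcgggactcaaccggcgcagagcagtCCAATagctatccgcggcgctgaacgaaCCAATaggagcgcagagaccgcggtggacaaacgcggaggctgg
Bub1: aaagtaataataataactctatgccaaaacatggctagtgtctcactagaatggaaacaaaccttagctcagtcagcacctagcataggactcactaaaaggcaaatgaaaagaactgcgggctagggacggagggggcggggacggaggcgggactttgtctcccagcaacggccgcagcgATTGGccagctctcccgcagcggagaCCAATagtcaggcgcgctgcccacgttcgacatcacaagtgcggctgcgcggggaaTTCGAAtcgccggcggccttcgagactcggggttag
Top2a: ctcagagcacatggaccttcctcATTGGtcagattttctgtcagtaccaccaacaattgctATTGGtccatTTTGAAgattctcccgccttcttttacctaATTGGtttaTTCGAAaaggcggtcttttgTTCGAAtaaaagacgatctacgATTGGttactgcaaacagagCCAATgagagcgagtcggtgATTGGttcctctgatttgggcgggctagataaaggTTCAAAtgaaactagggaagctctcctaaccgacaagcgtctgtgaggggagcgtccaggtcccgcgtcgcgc
The Uhrf1 window held 1 E2F word and the Mcm5 window 3, and neither held a CHR word. The Bub1 window held 1 CHR word and the Top2a window 4, and neither held an E2F word.

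**Figure D1:**
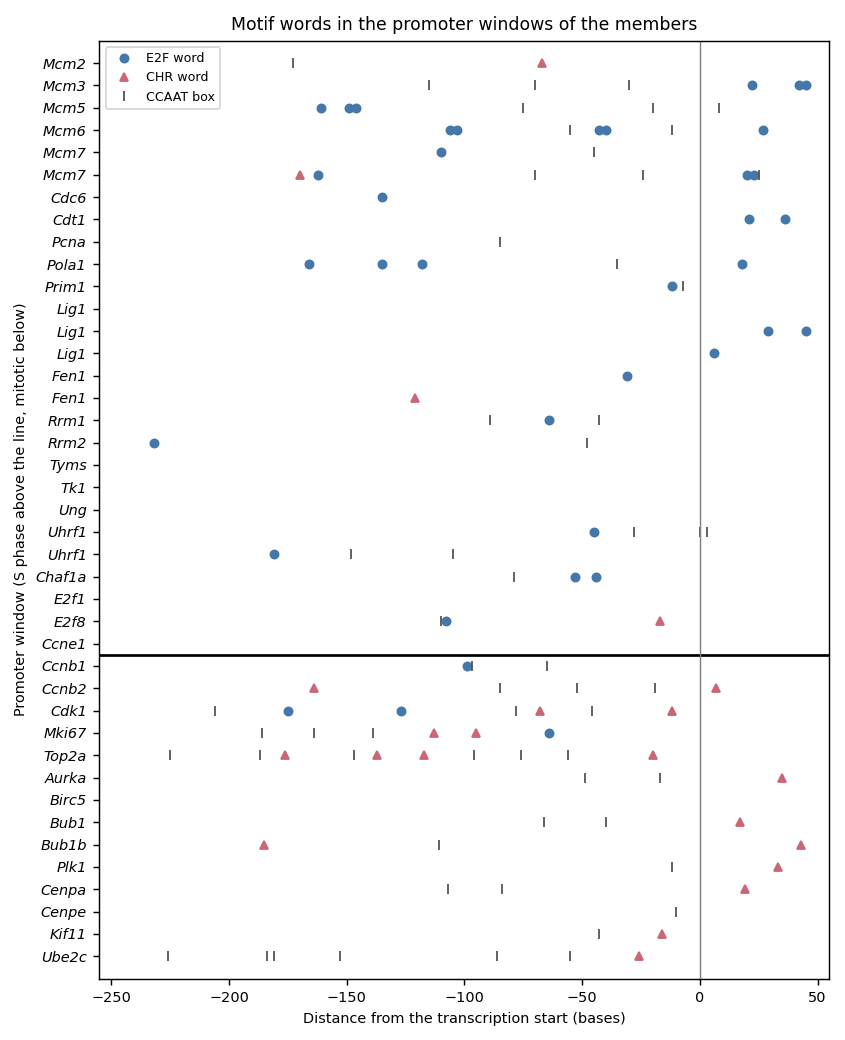
Positions of E2F words (circles), CHR words (triangles) and CCAAT boxes (ticks) in the 41 promoter windows of 36 member genes; the x axis is the distance of the word's middle base from the transcription start in bases, and each row is 1 window. Circles fill the S phase rows above the line (18 of 27 windows) and triangles the mitotic rows below it (11 of 14 windows).

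Library totals ranged from 26190194 to 30308132 counts, so that 1 count was worth 0.0309 to 0.0378 CPM, a count scaled to library size and the unit of all levels below. Tgfbr2, the receptor gene whose dominant-negative form defines TG, had 349 and 345 CPM in WT Kupffer cells, 319 and 289 CPM in TG Kupffer cells, 232 and 174 CPM in WT MoM and 249 and 178 CPM in TG MoM, so that both TG libraries were slightly lower in Kupffer cells (-0.19 ± 0.25 on the log2 scale, not called) and the genotypes overlapped in MoM. The counts do not tell the transgene from the endogenous gene. Kupffer markers fitted the labels in 7 libraries, with a sum over 6 genes of 12768 to 25664 CPM in Kupffer cells and of 124 to 449 CPM in 3 MoM libraries. WT MoM replicate 1 went against its label, with a sum of 7880 CPM. Ccr2, the chemokine receptor of monocytes, had 3.88 to 13.1 CPM in the Kupffer libraries and 128 to 459.7 CPM in the MoM libraries. TG Kupffer replicate 2 and WT MoM replicate 1 carried much endothelial RNA, with 7645 and 4738 CPM over 7 genes against 520 to 2333 CPM in the other libraries. In the other Kupffer libraries the largest part of this sum was Cdh5, at 973 to 1300.3 CPM. TG MoM replicate 2 carried neutrophil RNA, with 3485 CPM over 8 genes against at most 76.1 CPM elsewhere. Medians over the members are given below for all libraries, without TG Kupffer replicate 2 and WT MoM replicate 1, and without TG MoM replicate 2.

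Summed over the 18 mitotic genes, levels were 218 and 297 CPM in WT Kupffer cells, 204 and 319 CPM in TG Kupffer cells, 459 and 812 CPM in WT MoM and 676 and 879 CPM in TG MoM. Every MoM library lay above every Kupffer library, and the 2 libraries of each group lay far apart. Over the 26 S phase genes the sums were 837 and 855 CPM in WT Kupffer cells, 657 and 650.3 CPM in TG Kupffer cells, 966 and 1054 CPM in WT MoM and 1144 and 1041 CPM in TG MoM. These sums also put all 4 MoM libraries above all 4 Kupffer libraries, with TG Kupffer cells lowest and the sums of a group close together. In TG Kupffer cells the close sums hide opposite differences of single genes, such as Pcna at 164 and 119 CPM and Mcm6 at 35.5 and 60.8 CPM. In bulk RNA, fewer dividing cells and less RNA of these genes per cell cannot be told apart.

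**Figure D2:**
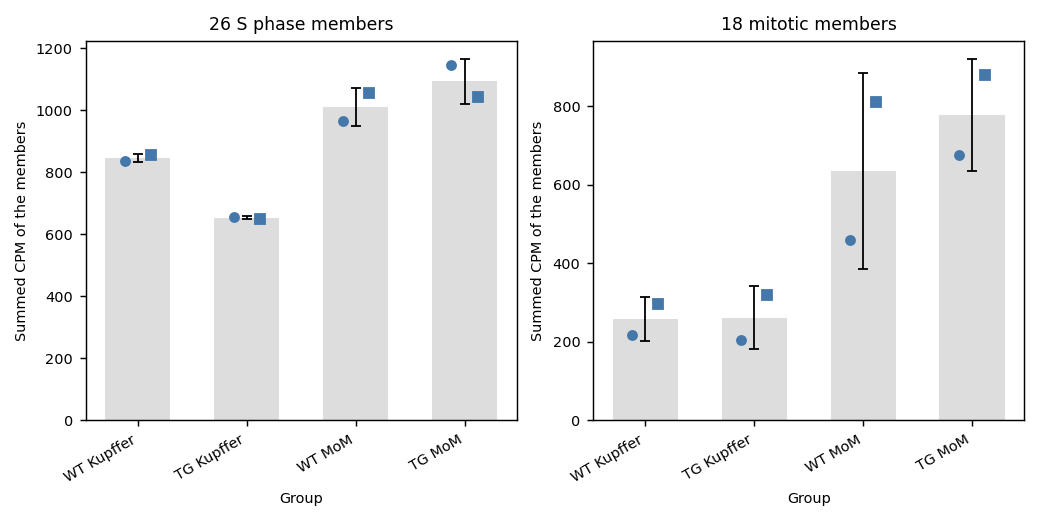
Summed CPM of the 26 S phase genes (left) and of the 18 mitotic genes (right) on the y axis, for the 4 groups on the x axis; bars are group means, error bars the SD of 2 libraries, circles replicate 1 and squares replicate 2. For the mitotic genes the Kupffer libraries sit between 204 and 319 CPM and the MoM libraries between 459 and 879 CPM.

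Gene by gene, 27 of the 44 members (61.4%) had all 4 MoM libraries above all 4 Kupffer libraries, against 14.8% of all genes tested, and 0 of 44 had them all below, against 11.4%. The 27 genes comprise 14 of 26 S phase members and 13 of 18 mitotic members. Among S phase members they take in all 6 Mcm subunits. Among mitotic members the exceptions are Ccnb1, Cdk1, Mki67, Plk1 and Ube2c. By library, 25 of the 44 genes had their lowest level in TG Kupffer replicate 1, and 36 had their highest level in WT MoM replicate 2 (14 genes), TG MoM replicate 2 (12 genes) or TG MoM replicate 1 (10 genes).

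**Figure D3:**
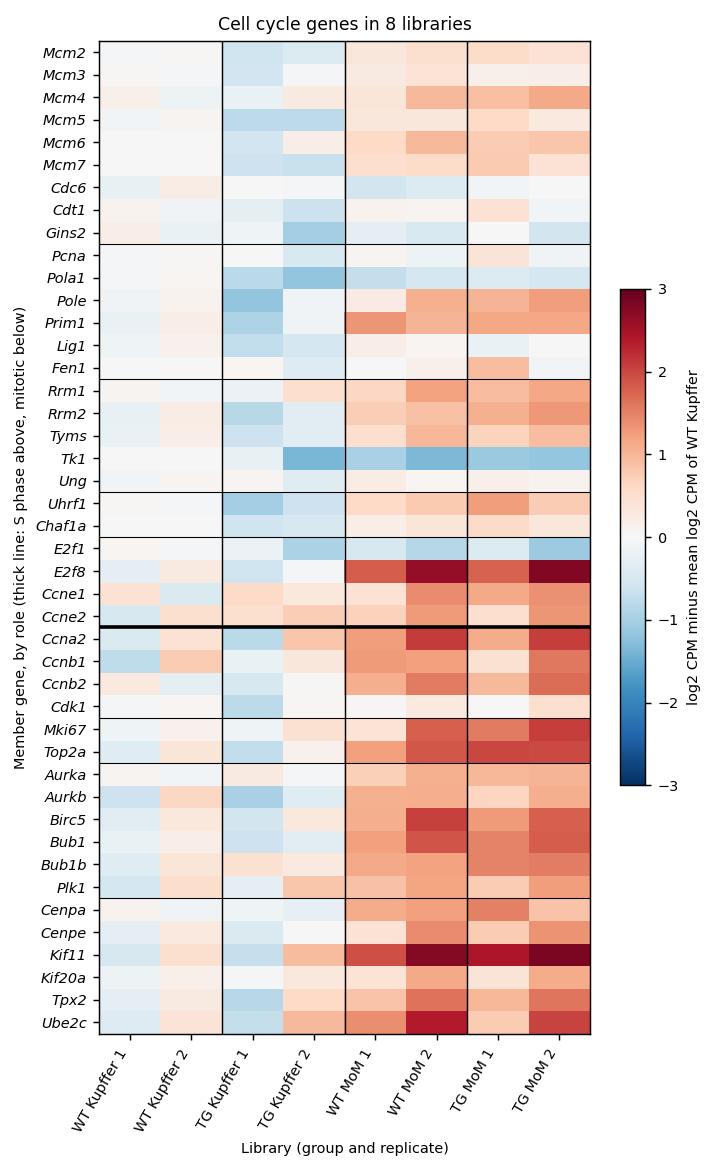
Log2 CPM of each of the 44 genes (rows, by role, S phase above the thick line) in each of the 8 libraries (columns), shown by colour as the difference from the mean log2 CPM of the 2 WT Kupffer libraries, on a scale from -3 to 3. Red fills most MoM columns, more deeply below the thick line, and 25 genes have their lowest value in TG Kupffer replicate 1.

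MoM were compared with Kupffer cells within TG mice and within WT mice. A call needed an adjusted p below 0.05 in edgeR's quasi-likelihood test, adjusted by Benjamini-Hochberg over all 15254 genes. In TG mice 6 of 44 members were called, all 6 higher in MoM, against 1.84% of all genes tested called higher. These calls were lost without TG Kupffer replicate 1, either WT Kupffer library or either TG MoM library. The WT Kupffer libraries are not among those compared, but they add to the spread shared by all groups. The calls were also lost with only the 4 TG libraries fitted. Of all genes, 0 or 1 were called in these fits. The log2 fold changes moved less, with Uhrf1 between 1.58 and 2.07 and Mcm2 between 0.88 and 1.06 when single libraries were left out. At an unadjusted p below 0.05, 27 members were higher in TG MoM and 0 lower, against 14.1% and 11.4% of all genes. In WT mice 0 of 44 members were called, against 1.17% of all genes tested, and 18 members were higher and 2 lower at an unadjusted p below 0.05, against 14.9% and 10.5% of all genes. DESeq2 called 19 members in TG and 9 in WT, all higher in MoM, against 8.59% and 11.3% of all genes it tested called higher.

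The helicase group had the most called members, 3 of 9. The Mcm2-7 proteins form the ring that unwinds DNA at the replication fork. Mcm5 (chr8:75109569-75128439 on build GRCm38) had 53.9 and 60.5 CPM in WT Kupffer cells, 33.2 and 33.2 CPM in TG Kupffer cells, 71.8 and 72.3 CPM in WT MoM and 86.3 and 69.6 CPM in TG MoM. The 4 groups did not overlap except for the MoM of the 2 genotypes, and TG Kupffer cells were lowest. Mcm5 rose 2.35-fold from Kupffer cells to MoM in TG (log2 fold change 1.23 ± 0.19, adjusted p = 0.0371), while in WT its log2 fold change was 0.33 ± 0.18 (adjusted p = 0.281).

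Mcm7 (chr5:138164583-138172422) had 40.5 and 41.4 CPM in WT Kupffer cells, 26.7 and 26.0 CPM in TG Kupffer cells, 58.2 and 60.3 CPM in WT MoM and 70.6 and 55.1 CPM in TG MoM. Both MoM groups lay above both Kupffer groups, and TG Kupffer cells again lay below WT Kupffer cells. Mcm7 rose 2.39-fold in TG (log2 fold change 1.26 ± 0.19, adjusted p = 0.0387), and in WT the log2 fold change was 0.53 ± 0.19 (adjusted p = 0.159). Exons of Mcm7 overlap those of other genes, among them the microRNA genes Mir25 and Mir93 on the same strand, so its counts may include their reads. Mcm2 (chr6:88883474-88898780) had 37.0 and 39.3 CPM in WT Kupffer cells, 25.3 and 28.6 CPM in TG Kupffer cells, 48.4 and 52.9 CPM in WT MoM and 56.2 and 51.4 CPM in TG MoM. No MoM library reached down to any Kupffer library, and the rise in TG was 2.00-fold (log2 fold change 1.00 ± 0.18, adjusted p = 0.0493), against 0.41 ± 0.18 in WT (adjusted p = 0.211).

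Mcm3, Mcm4 and Mcm6, the other subunits of the ring, had log2 fold changes of 0.47 ± 0.22, 0.96 ± 0.29 and 0.93 ± 0.29 in TG and were not called, though all their MoM libraries lay above all their Kupffer libraries. The factors around the helicase did not share that order. Cdc6, which loads the ring, had a log2 fold change of -0.02 ± 0.31 in TG and -0.50 ± 0.31 in WT. Cdt1, its partner in loading, had 0.65 ± 0.26 and 0.09 ± 0.26, and Gins2, a subunit of the GINS complex of the active helicase, 0.26 ± 0.43 and -0.37 ± 0.43.

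No gene of DNA synthesis was called in either genotype. Prim1, the primase that makes the first RNA primer, had 4.96 and 6.57 CPM in WT Kupffer cells, 3.02 and 5.27 CPM in TG Kupffer cells, 14.3 and 11.6 CPM in WT MoM and 12.8 and 12.8 CPM in TG MoM. Every MoM library was above every Kupffer library, with log2 fold changes of 1.62 ± 0.37 in TG (adjusted p = 0.0709) and 1.16 ± 0.36 in WT (0.133). Pole, the catalytic subunit of the leading-strand polymerase, had 11.0 and 12.6 CPM in WT Kupffer cells, 5.14 and 11.0 CPM in TG Kupffer cells, 14.0 and 24.6 CPM in WT MoM and 23.8 and 28.2 CPM in TG MoM. Its libraries had the same order between cell types but wide spreads, at 1.69 ± 0.45 in TG and 0.71 ± 0.44 in WT.

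Pola1, the catalytic subunit of the polymerase that extends primers, had 41.4 and 44.2 CPM in WT Kupffer cells, 24.5 and 18.8 CPM in TG Kupffer cells, 25.9 and 29.5 CPM in WT MoM and 32.2 and 29.9 CPM in TG MoM. It was highest in WT Kupffer cells, lowest in TG Kupffer cells and between these in all MoM libraries, so its 2 log2 fold changes had opposite signs (0.52 ± 0.21 in TG and -0.63 ± 0.21 in WT, adjusted p = 0.196 and 0.150). Pcna, the sliding clamp that holds polymerases on DNA, had 159.6 and 169 CPM in WT Kupffer cells, 164 and 119 CPM in TG Kupffer cells, 172 and 147 CPM in WT MoM and 215 and 152 CPM in TG MoM, and its groups overlapped throughout. Lig1, which seals nicks between new fragments, and Fen1, which trims their flaps, had log2 fold changes of 0.53 ± 0.20 and 0.65 ± 0.35 in TG and of 0.12 ± 0.20 and 0.08 ± 0.35 in WT.

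Among the enzymes that supply nucleotides, Rrm2 was called in TG. Rrm2 (chr12:24708241-24714146), the small subunit of ribonucleotide reductase, had 12.5 and 17.1 CPM in WT Kupffer cells, 8.20 and 11.7 CPM in TG Kupffer cells, 24.5 and 26.9 CPM in WT MoM and 30.7 and 35.8 CPM in TG MoM. The groups of MoM and Kupffer cells did not overlap, and TG Kupffer cells were lowest and TG MoM highest. Rrm2 rose 3.33-fold in TG (log2 fold change 1.74 ± 0.28, adjusted p = 0.0433), with 0.80 ± 0.28 in WT (adjusted p = 0.153).

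Rrm1, the large subunit of the same enzyme, had 34.0 and 30.8 CPM in WT Kupffer cells, 28.8 and 46.1 CPM in TG Kupffer cells, 49.6 and 74.8 CPM in WT MoM and 61.0 and 72.8 CPM in TG MoM, and its log2 fold changes were 0.84 ± 0.31 in TG and 0.94 ± 0.31 in WT. Tyms, which makes thymidylate, had 5.71 and 7.50 CPM in WT Kupffer cells, 4.27 and 5.27 CPM in TG Kupffer cells, 9.36 and 13.0 CPM in WT MoM and 10.4 and 12.4 CPM in TG MoM, with 1.25 ± 0.33 and 0.76 ± 0.33. Both had all MoM libraries above all Kupffer libraries without being called.

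Tk1, the thymidine kinase of the salvage pathway, went the other way. It had 56.5 and 55.8 CPM in WT Kupffer cells, 48.0 and 21.8 CPM in TG Kupffer cells, 28.8 and 22.0 CPM in WT MoM and 25.8 and 25.1 CPM in TG MoM. Both WT Kupffer libraries were above all other libraries, TG Kupffer replicate 2 was the lowest of all, and the log2 fold change was -1.14 ± 0.38 in WT (adjusted p = 0.144) and -0.46 ± 0.37 in TG (adjusted p = 0.495). Without TG Kupffer replicate 2 and WT MoM replicate 1, the 2 libraries richest in endothelial RNA, Tk1 passed the edgeR test as lower in MoM in both genotypes, a fit that keeps the neutrophil-rich TG MoM replicate 2 and called 7.43% of all genes lower in WT and 7.06% in TG. Exons of Tk1 overlap those of Afmid over 83 of 5198 bases. The strand setting of the counts is not given, so reads of the 2 genes may be mixed there. Ung, which removes uracil from DNA, had 3.32 to 4.97 CPM in all libraries.

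Uhrf1 had the smallest p of the 44 genes in the TG comparison. Uhrf1 (chr17:56303321-56323486) recognises hemimethylated DNA behind the fork and recruits the methyltransferase Dnmt1. It had 19.3 and 18.5 CPM in WT Kupffer cells, 9.34 and 12.2 CPM in TG Kupffer cells, 28.6 and 32.7 CPM in WT MoM and 45.2 and 32.1 CPM in TG MoM. TG Kupffer cells were lowest, then WT Kupffer cells, and the MoM of the 2 genotypes overlapped above them. Uhrf1 rose 3.59-fold from Kupffer cells to MoM in TG (log2 fold change 1.84 ± 0.26, adjusted p = 0.0350), and had 0.70 ± 0.26 in WT (adjusted p = 0.166). Chaf1a, a subunit of the complex that places histones on new DNA, had 13.1 and 13.2 CPM in WT Kupffer cells, 8.73 and 9.48 CPM in TG Kupffer cells, 15.2 and 16.8 CPM in WT MoM and 19.7 and 16.5 CPM in TG MoM. Its libraries had the same order by cell type over a narrower range, with 0.99 ± 0.23 in TG (adjusted p = 0.0714) and 0.28 ± 0.23 in WT (0.440).

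The regulators of the step from G1 to S did not move as a group. E2f8, an E2F family member that represses transcription, had 3.59 and 5.19 CPM in WT Kupffer cells, 2.84 and 4.24 CPM in TG Kupffer cells, 15.3 and 26.6 CPM in WT MoM and 14.6 and 29.4 CPM in TG MoM. All MoM libraries were far above all Kupffer libraries, and the log2 fold changes, 2.64 ± 0.50 in TG and 2.25 ± 0.49 in WT, were the highest of the S phase members in both genotypes without passing the test (adjusted p = 0.0549 and 0.0831). E2f1, an activating member of that family, had 46.2 and 42.4 CPM in WT Kupffer cells, 39.0 and 22.7 CPM in TG Kupffer cells, 31.8 and 24.5 CPM in WT MoM and 33.3 and 20.8 CPM in TG MoM. Here both WT Kupffer libraries were highest, and the log2 fold changes were -0.19 ± 0.35 in TG and -0.65 ± 0.35 in WT.

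Cyclin E genes, which act with Cdk2 at the start of S phase, had few counts. Ccne1 had 3.27 and 1.79 CPM in WT Kupffer cells, 3.63 and 3.02 CPM in TG Kupffer cells, 3.27 and 6.47 CPM in WT MoM and 5.35 and 6.28 CPM in TG MoM, and Ccne2 had 2.05 and 4.03 CPM in WT Kupffer cells, 4.01 and 4.76 CPM in TG Kupffer cells, 4.63 and 7.01 CPM in WT MoM and 4.10 and 7.22 CPM in TG MoM. Within a genotype both had MoM above Kupffer cells without overlap (Ccne1 in WT only just), except Ccne2 in TG, and neither was called. The log2 fold changes of Ccne1 and Ccne2 were 0.81 ± 0.50 and 0.37 ± 0.50 in TG and 0.94 ± 0.50 and 0.94 ± 0.51 in WT.

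Among mitotic genes, Bub1 was called in TG. Bub1 (chr2:127801122-127831865), a kinase of the spindle checkpoint, had 3.99 and 5.19 CPM in WT Kupffer cells, 2.95 and 3.58 CPM in TG Kupffer cells, 10.7 and 16.7 CPM in WT MoM and 12.7 and 16.1 CPM in TG MoM. All MoM libraries were at least 10.7 CPM and no Kupffer library was over 5.19 CPM. Bub1 rose 4.41-fold in TG (log2 fold change 2.14 ± 0.36, adjusted p = 0.0455), and in WT it had 1.58 ± 0.35 (adjusted p = 0.0854).

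Bub1b, which encodes the checkpoint protein BubR1, had 9.70 and 16.2 CPM in WT Kupffer cells, 17.2 and 15.3 CPM in TG Kupffer cells, 27.4 and 29.1 CPM in WT MoM and 35.4 and 36.3 CPM in TG MoM. Birc5 encodes survivin, a subunit of the chromosomal passenger complex, and had 4.85 and 7.54 CPM in WT Kupffer cells, 4.12 and 7.56 CPM in TG Kupffer cells, 12.9 and 25.2 CPM in WT MoM and 14.6 and 21.0 CPM in TG MoM. Both kept MoM and Kupffer libraries apart, with log2 fold changes of 1.14 ± 0.28 and 1.61 ± 0.49 in TG and of 1.13 ± 0.28 and 1.62 ± 0.49 in WT. The kinases Aurka, Aurkb and Plk1, which act on spindle poles, centromeres and mitotic entry, had 0.88 ± 0.28, 1.52 ± 0.47 and 0.65 ± 0.53 in TG, with Plk1 overlapping between cell types there.

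Top2a and Mki67 are the usual marks of proliferating cells. Top2a (chr11:98992943-99024189), the topoisomerase that untangles chromosomes before they part, had 25.3 and 42.4 CPM in WT Kupffer cells, 19.6 and 36.0 CPM in TG Kupffer cells, 76.3 and 119 CPM in WT MoM and 132 and 128 CPM in TG MoM. MoM libraries started at 76.3 CPM and Kupffer libraries ended at 42.4 CPM, and the log2 fold changes were 2.22 ± 0.42 in TG (adjusted p = 0.0535) and 1.53 ± 0.41 in WT (0.107).

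Mki67, whose product Ki-67 coats mitotic chromosomes, had 78.1 and 94.5 CPM in WT Kupffer cells, 79.2 and 117 CPM in TG Kupffer cells, 114 and 295 CPM in WT MoM and 252 and 362 CPM in TG MoM. WT MoM replicate 1 lay just below TG Kupffer replicate 2, and the other 3 MoM libraries lay well above all Kupffer libraries. Its log2 fold changes were 1.64 ± 0.48 in TG (adjusted p = 0.105) and 1.25 ± 0.48 in WT (0.176). When single libraries were left out, the value in WT ran from 0.41 without WT MoM replicate 2 to 1.77 without WT MoM replicate 1. Without the 2 libraries richest in endothelial RNA, Mki67, Top2a, Kif11, Bub1, Birc5 and Tpx2 were called higher in MoM in both genotypes. In that fit 11 members were called in WT (10 higher) and 14 in TG (13 higher), against 9.62% and 6.5% of all genes called higher, where the fit of all libraries called 1.11% and 1.84% higher.

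The cyclins of S phase and mitosis differed in how far their groups lay apart. Ccnb2, a B-type cyclin, had 8.58 and 5.71 CPM in WT Kupffer cells, 4.99 and 7.19 CPM in TG Kupffer cells, 15.0 and 20.5 CPM in WT MoM and 13.8 and 22.3 CPM in TG MoM. Ccna2, the cyclin of S phase and G2, had 8.80 and 16.0 CPM in WT Kupffer cells, 6.77 and 21.1 CPM in TG Kupffer cells, 28.4 and 51.0 CPM in WT MoM and 25.7 and 50.0 CPM in TG MoM. Both kept MoM above Kupffer cells in every library, but in each group Ccna2 differed widely between the 2 libraries, and the SE of its log2 fold changes was 0.66 in both genotypes. Ccnb1, the other B-type cyclin, had 1.47 and 4.29 CPM in WT Kupffer cells, 2.19 and 3.17 CPM in TG Kupffer cells, 6.11 and 5.86 CPM in WT MoM and 3.46 and 7.50 CPM in TG MoM, with overlap between WT Kupffer cells and TG MoM. Cdk1, the kinase these cyclins bind, had 6.16 to 11.1 CPM in Kupffer cells and 10.5 to 14.8 CPM in MoM, with log2 fold changes of 0.56 ± 0.36 in TG and 0.16 ± 0.36 in WT.

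Cenpa, the histone variant that marks centromeres, had 16.3 and 14.2 CPM in WT Kupffer cells, 14.0 and 12.9 CPM in TG Kupffer cells, 32.8 and 35.6 CPM in WT MoM and 43.6 and 27.5 CPM in TG MoM. Kif11, the motor that pushes spindle poles apart, had 4.88 and 9.56 CPM in WT Kupffer cells, 4.23 and 13.2 CPM in TG Kupffer cells, 26.3 and 46.5 CPM in WT MoM and 37.0 and 48.1 CPM in TG MoM. MoM and Kupffer libraries of both genes did not overlap, with log2 fold changes of 1.40 ± 0.27 and 2.29 ± 0.63 in TG and of 1.17 ± 0.27 and 2.33 ± 0.63 in WT, the last being the highest of all 44 members in WT. Cenpe, a kinetochore motor, had 8.58 and 12.7 CPM in WT Kupffer cells, 7.67 and 10.3 CPM in TG Kupffer cells, 14.0 and 28.0 CPM in WT MoM and 17.7 and 26.4 CPM in TG MoM, and its log2 fold changes of 1.29 ± 0.43 and 0.98 ± 0.43 were not called. The remaining members of that group were Kif20a, a motor of cytokinesis, Tpx2, which activates Aurora A, and Ube2c, the ubiquitin-conjugating enzyme of mitotic exit. They had log2 fold changes of 0.65 ± 0.38, 1.27 ± 0.55 and 1.18 ± 0.71 in TG and 0.82 ± 0.38, 1.26 ± 0.55 and 1.91 ± 0.73 in WT.

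Of the 44 log2 fold changes between cell types, 41 were positive in TG and 38 in WT, with all 18 mitotic genes positive in both. Both MoM libraries were above both Kupffer libraries for 34 members in TG and 34 in WT, against 29.1% and 38.5% of all genes. The reverse held for 0 members in TG and for 5 in WT (Cdc6, Gins2, Pola1, Tk1 and E2f1), against 23.8% and 29.7% of all genes. Without the 2 libraries richest in endothelial RNA the mitotic medians were 1.74 in TG and 1.42 in WT, and the S phase medians 0.80 and 0.40.

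**Figure D4:**
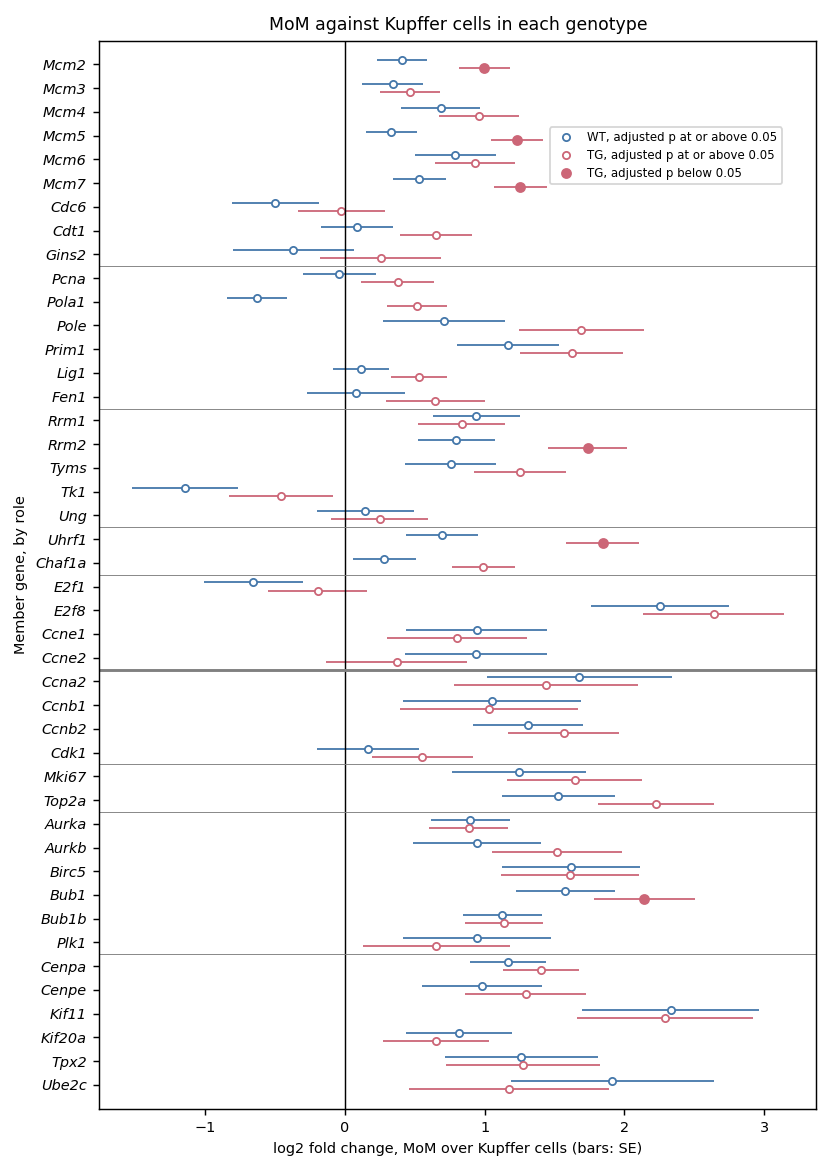
Log2 fold change of MoM over Kupffer cells (x axis, bars are SE) for each of the 44 genes (y axis, by role, S phase above the thick line), in WT (blue) and TG (red); filled points have an adjusted p below 0.05. The 6 filled points, all in TG and right of 0, are Mcm2, Mcm5, Mcm7, Rrm2, Uhrf1 and Bub1, and Tk1 and E2f1 lie left of 0 in both genotypes.

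Other genes of the same machinery were read from 3 lists outside the members. Like the members, none of their genes was called in TG without TG Kupffer replicate 1, either WT Kupffer library or either TG MoM library, or with only the 4 TG libraries fitted. Of 48 further S phase genes, 3 were called higher in MoM in TG and 0 in WT, against 1.84% and 1.11% of all genes called higher, and 44 and 39 were positive. The 3 were Rfc2, a subunit of the clamp loader (1.09 ± 0.19), Dtl, a substrate receptor for the destruction of Cdt1 (1.52 ± 0.27), and Wdhd1, which ties polymerase alpha to the helicase (1.39 ± 0.25). Of 55 further mitotic genes, 4 were called higher in TG and 0 in WT, and 52 and 50 were positive. They were Espl1, the separase that cuts cohesin (2.37 ± 0.30), Kif15, a spindle motor (2.03 ± 0.29), Mybl2, which encodes B-Myb (1.99 ± 0.36), and Hmgb2, a chromatin protein (1.38 ± 0.22). Ncapg2, a subunit of condensin II, was an exception with 47.2 and 44.3 CPM in WT Kupffer cells and 22.9 and 21.9 CPM in WT MoM, lower in MoM without being called (-1.03 ± 0.21, adjusted p = 0.0730).

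Of 33 regulators outside the members, 2 were called higher in MoM in TG and 1 in WT, against 1.84% and 1.11% of all genes. E2f2, an activating E2F, was called in both. It had 2.66 and 5.30 CPM in WT Kupffer cells, 3.40 and 4.87 CPM in TG Kupffer cells, 27.0 and 35.0 CPM in WT MoM and 56.5 and 54.9 CPM in TG MoM. No MoM library was below 27.0 CPM and no Kupffer library above 5.30 CPM, and the rise was 3.75 ± 0.41 in TG and 2.96 ± 0.40 in WT on the log2 scale (adjusted p = 0.0265 and 0.0369). In WT the call was lost without either WT Kupffer library, either TG MoM library or WT MoM replicate 2. The other call in TG was Cdkn2d, the inhibitor p19 of the kinases Cdk4 and Cdk6, at 2.37 ± 0.41 (adjusted p = 0.0472). It had 13.5 and 6.87 CPM in WT Kupffer cells, 10.9 and 11.0 CPM in TG Kupffer cells, 29.4 and 44.7 CPM in WT MoM and 66.3 and 46.7 CPM in TG MoM, and MoM lay above Kupffer cells throughout.

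The cyclin D genes, which act in G1, differed in how they followed the cell types. Ccnd1 had 207 and 166 CPM in WT Kupffer cells, 158 and 154 CPM in TG Kupffer cells, 239 and 240.1 CPM in WT MoM and 212 and 174 CPM in TG MoM, with overlap between WT Kupffer cells and TG MoM. Ccnd2 had 14.0 and 10.9 CPM in WT Kupffer cells, 14.4 and 95.5 CPM in TG Kupffer cells, 120.3 and 180.3 CPM in WT MoM and 290.1 and 243 CPM in TG MoM. Here all MoM libraries lay above all Kupffer libraries, and TG Kupffer replicate 2 stood apart from its partner. Ccnd3 had 60.5 and 74.2 CPM in WT Kupffer cells, 82.7 and 126 CPM in TG Kupffer cells, 152 and 234 CPM in WT MoM and 226 and 252 CPM in TG MoM, with log2 fold changes of 1.20 ± 0.31 in TG and 1.52 ± 0.31 in WT that were not called (adjusted p = 0.0847 and 0.0769).

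Inhibitors of cyclin-dependent kinases did not move as a group. Cdkn1a, which encodes p21, had 139 and 61.3 CPM in WT Kupffer cells, 136 and 284 CPM in TG Kupffer cells, 226 and 541 CPM in WT MoM and 427 and 582 CPM in TG MoM, so that it too was high in many MoM libraries (1.27 ± 0.61 in TG and 1.94 ± 0.62 in WT). Cdkn1b, which encodes p27, had 1.21 ± 0.34 and 0.38 ± 0.34. Cdkn2a and Cdkn2b, the genes of p16 and p15, had few counts: Cdkn2a had 1.83 to 4.01 CPM in Kupffer cells and 0.278 to 0.904 CPM in MoM, and Cdkn2b had 0.527 to 2.99 CPM in all libraries. Cdkn1c and Cdkn2c had log2 fold changes of -0.94 ± 0.91 and 0.59 ± 0.51 in TG and of 1.61 ± 0.92 and 0.22 ± 0.51 in WT. None of the inhibitors in this paragraph was called.

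TG Kupffer cells were compared with WT Kupffer cells. Most S phase genes had negative log2 fold changes, none of them called, and the mitotic genes were evenly split. The median log2 fold change of the 26 S phase genes was -0.47, with 22 negative, and that of the 18 mitotic genes -0.03, with 9 negative, beside 0.03 over all genes tested. edgeR called 0 members and 0 of all 15254 genes (percent called 0), and DESeq2 called 1 member, Pola1, lower in TG, against 0.147% of all genes it tested called lower. At an unadjusted p below 0.05, 6 members were lower and 0 higher, against 1.26% of all genes lower and 4.68% higher.

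The 6 genes below that unadjusted threshold all act in S phase: Pola1, Mcm5, Mcm7, Lig1, Uhrf1 and Mcm2. Pola1 averaged 42.8 ± 1.97 CPM in WT and 21.7 ± 4.05 CPM in TG (SD, n = 2; log2 fold change -0.98 ± 0.22, edgeR adjusted p = 0.730). Mcm5 averaged 57.2 ± 4.67 CPM in WT and 33.2 ± 0.0226 CPM in TG (-0.79 ± 0.18), and Uhrf1 18.9 ± 0.544 and 10.8 ± 2.03 CPM (-0.81 ± 0.26), with the same adjusted p. The 2 libraries of each group lay close together for these genes and the groups did not overlap. Mcm7, Lig1 and Mcm2 had log2 fold changes of -0.64 ± 0.19, -0.64 ± 0.20 and -0.50 ± 0.18.

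Both TG libraries lay below both WT libraries for 16 of 44 members, 14 of them S phase genes, against 17.7% of all genes, and above for 0 of 44, against 16.7%. The 14 were Mcm2, Mcm3, Mcm5, Mcm7, Cdt1, Pola1, Pole, Lig1, Rrm2, Tyms, Tk1, Uhrf1, Chaf1a and E2f1, and the mitotic genes were Bub1 and Cenpa. Without any 1 of the 8 libraries the S phase median lay between -0.52 and -0.35, and without the 2 libraries richest in endothelial RNA it was -0.52. The mitotic median ranged from -0.51 to 0.26 when single libraries were left out. Sums of T cell, neutrophil, natural killer cell and plasma cell markers also kept the genotypes apart, with TG above WT. T cell markers summed to 24.4 and 27.0 CPM in WT and 40.3 and 165 CPM in TG Kupffer cells, neutrophil markers to 1.47 and 2.09 and 32.7 and 14.2 CPM, natural killer cell markers to 3.81 and 5.04 and 8.69 and 127 CPM, and plasma cell markers to 3.91 and 2.69 and 27.0 and 59.1 CPM. In TG replicate 1 most of the T cell sum was Cd4, at 30.2 CPM against 16.3 and 15.5 CPM in WT. Only Cd4 and Cd3d kept the genotypes apart among the T cell markers. Cd3e, Cd3g and Cd8a overlapped, with Cd3e at 1.89 and 23.7 CPM in TG and 0.970 and 3.29 CPM in WT. Ncr1 and Eomes of the natural killer cell markers, Mzb1 of the plasma cell markers and Prtn3 of the neutrophil markers overlapped too. The other markers of these lists kept the genotypes apart. Most of the plasma cell sum in TG replicate 1 was Sdc1, at 20.5 CPM against 0.970 and 1.94 CPM in WT. Endothelial markers summed to 1918 and 2333 CPM in WT and 1634 and 7645 CPM in TG. Cdh5 was the largest part of that sum in WT and in TG replicate 1. It was lower in TG, at 1277 and 1300.3 CPM in WT and 973 and 953 CPM in TG. Every other endothelial marker was highest in TG replicate 2, such as Ptprb at 28.2 and 101 CPM in WT and 21.8 and 1687 CPM in TG. The sum thus understates how far TG replicate 2 stood apart in these other markers. The part of any of these cell types in the S phase levels was not tested.

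None of the 44 members is among the 179 genes of the authors' deposited table of TG against WT, whose highest adjusted p is 0.0479 and which does not name the cell type. That list is short beside the 24786 genes counted, so the absence says little about the members. Of the 3 further lists no gene was called. Values of those with small p follow. Kif23, a motor of cytokinesis, had 60.1 and 68.9 CPM in WT and 39.1 and 23.4 CPM in TG Kupffer cells (-1.04 ± 0.27), and Cdk6, a kinase bound by cyclin D, 40.4 and 32.1 and 5.33 and 18.6 CPM (-1.60 ± 0.58). Ccnd2 had 2.14 ± 0.80, resting on TG replicate 2. Wdhd1 and Stmn1, which destabilises microtubules, had -0.62 ± 0.24 and -0.88 ± 0.36.

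TG MoM were compared with WT MoM in the same fit. The median log2 fold change was 0.10 for S phase genes and 0.05 for mitotic genes, beside -0.04 over all genes. The mitotic median rests on single libraries, since it ran from -0.26 without the neutrophil-rich TG MoM replicate 2 to 0.39 without WT MoM replicate 2, while the S phase median ran from 0.04 without TG MoM replicate 1 to 0.23 without WT MoM replicate 2. Without the 2 libraries richest in endothelial RNA they were 0.05 (S phase) and -0.19 (mitotic). edgeR called 0 members and 0 of all genes (percent called 0). DESeq2 called 0 members, against 0.478% of all genes it tested called higher and 0.528% lower, and 0 members had an unadjusted p below 0.05 in edgeR, against 6.47% of all genes. Both TG libraries were above both WT libraries for Cdc6, Pola1, Rrm2, Top2a and Bub1b and below for Mcm3 and Lig1, against 19.2% and 20% of all genes.

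The values with the widest distance were those of Mki67, at 205 ± 128 CPM in WT and 307 ± 77.2 CPM in TG MoM (SD, n = 2; log2 fold change 0.58 ± 0.47, edgeR adjusted p = 0.854), with libraries that overlapped. Rrm2 averaged 25.7 ± 1.68 and 33.2 ± 3.59 CPM (0.37 ± 0.28), and Top2a 97.6 ± 30.2 and 129.9 ± 2.36 CPM (0.41 ± 0.40). Outside the members the smallest p belonged to regulators. Cdkn2b had 1.91 and 1.93 CPM in WT and 0.527 and 0.555 CPM in TG MoM (-1.82 ± 0.59). Lin54, a MuvB subunit, had 1.01 ± 0.36, the pocket protein genes Rbl1 and Rb1 0.76 ± 0.28 and 0.80 ± 0.30, Cdkn1b 0.85 ± 0.34 and E2f2 0.85 ± 0.37, none of them called (edgeR adjusted p = 0.755 to 0.757).

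**Figure D5:**
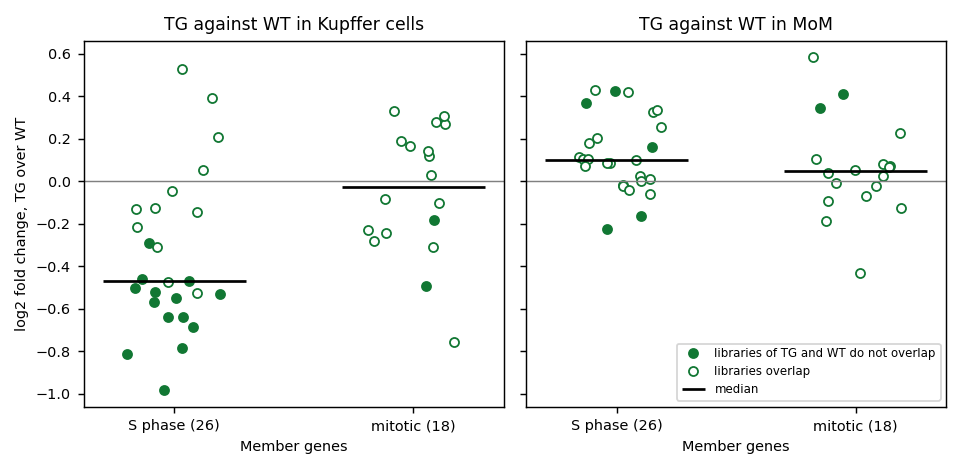
Log2 fold change of TG over WT (y axis) for each S phase and mitotic gene (points, spread sideways for legibility), in Kupffer cells (left) and MoM (right); filled points mark genes whose TG and WT libraries do not overlap, and black lines are medians. In Kupffer cells the S phase median is -0.47 and the mitotic median -0.03, and in MoM they are 0.10 and 0.05.

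Whether the genotypes differed by cell type was tested as an interaction, in which a positive value means a higher ratio of TG to WT in MoM than in Kupffer cells. edgeR called 0 members and 0 of all 15254 genes (percent called 0), and DESeq2 called 0 members, against 0.0819% of all genes it tested called positive and 0.214% negative. At an unadjusted p below 0.05, 4 members were positive, against 2.66% of all genes, and 0 negative, against 3.76%. These were Pola1 (1.15 ± 0.30), Mcm5 (0.90 ± 0.26), Uhrf1 (1.15 ± 0.36) and Mcm7 (0.72 ± 0.27), each at an edgeR adjusted p of 0.626. The S phase median was 0.48 and the mitotic median 0.01, beside -0.12 over all genes. Pola1 and Rrm2 had TG below WT in Kupffer cells and above WT in MoM in every library, an opposite order found for 6.58% of all genes. This test uses the same libraries as the comparisons above and gives no separate support to them.

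Mitotic genes differed more between the 2 libraries of a group than S phase genes did. In WT Kupffer cells the median absolute log2 difference between replicates was 0.57 for mitotic genes and 0.16 for S phase genes, beside 0.22 over all genes. In WT MoM it was 0.63, 0.19 and 0.42, and in TG MoM 0.51, 0.24 and 0.35. In TG Kupffer cells it was 0.56, 0.41 and 0.50. In each group 15 to 17 of the 18 mitotic genes were higher in the library numbered 2. The libraries numbered 2 also carried more erythroid RNA, whose 6 markers summed to 398 and 1186 CPM in WT Kupffer cells, 355 and 3807 CPM in TG Kupffer cells, 884 and 3111 CPM in WT MoM and 480.5 and 1840.1 CPM in TG MoM. Hemoglobin genes gave most of that sum, and Klf1, which marks nucleated precursors, had at most 0.295 CPM. Hba-a1 and Hba-a2 had equal or nearly equal levels in every library, so reads of 1 may be counted for both. Sums of T cell and of hepatocyte markers were also higher in the library numbered 2 of every group. Among their single genes Cd4 and Cd8a in WT Kupffer cells and Apoa1 and Serpina1a in WT MoM went the other way. The part of erythroid, T cell or hepatocyte RNA in the mitotic levels was not tested.

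Markers of several cell types moved with the higher mitotic levels of MoM. Monocyte markers summed to 162 and 129 CPM in WT Kupffer cells, 174 and 135 CPM in TG Kupffer cells, 607 and 1331 CPM in WT MoM and 1299 and 2535 CPM in TG MoM. Dendritic cell markers summed to 19.8 and 7.02 CPM in WT Kupffer cells, 11.2 and 76.9 CPM in TG Kupffer cells, 512 and 741 CPM in WT MoM and 447 and 513 CPM in TG MoM. B cell markers summed to 25.3 and 21.8 CPM in WT Kupffer cells, 19.4 and 36.2 CPM in TG Kupffer cells, 89.9 and 152 CPM in WT MoM and 210.0 and 101 CPM in TG MoM. All 4 MoM libraries were above all 4 Kupffer libraries for these 3 sums, and none of these markers was at 0 in any library.

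Neutrophil markers, which include the precursor genes Elane, Mpo and Prtn3, summed to 1.47 and 2.09 CPM in WT Kupffer cells, 32.7 and 14.2 CPM in TG Kupffer cells, 23.3 and 76.1 CPM in WT MoM and 74.7 and 3485 CPM in TG MoM, with 3 of 8 markers at 0 in each WT Kupffer library. The highest precursor levels were in TG MoM replicate 2, at 19.9, 36.5 and 20.6 CPM. In a fit without that library the mitotic median in TG was 1.05 and the S phase median 0.87. Natural killer cell markers summed to 3.81 and 5.04 CPM in WT Kupffer cells, 8.69 and 127 CPM in TG Kupffer cells, 19.9 and 131 CPM in WT MoM and 299.7 and 165 CPM in TG MoM, and plasma cell markers to 3.91 and 2.69 CPM in WT Kupffer cells, 27.0 and 59.1 CPM in TG Kupffer cells, 45.2 and 154 CPM in WT MoM and 132 and 163 CPM in TG MoM. The part of any of these cells in the levels of the 44 genes was not tested.

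Compared per kilobase of exons, Pcna was the most abundant of the 44 genes in every group, at 68.4 CPM per kb in WT Kupffer cells, 59.0 in TG Kupffer cells, 66.6 in WT MoM and 76.6 in TG MoM. In WT Kupffer cells Mcm3 followed at 20.8 CPM per kb and Mcm5 at 14.3, and Ccnb1, Ung and E2f8 were lowest at 0.684, 0.781 and 0.807. In TG MoM Mki67 reached 30.5 CPM per kb and E2f8 4.05. Exons of 10 members overlap those of another annotated gene, so that their levels may include its reads, while no member shared its full set of counts with another gene. The overlaps were longest for Chaf1a and Gins2.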

How the data were processed

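The deposited files hold, for each of 8 libraries, whole-number read counts per gene symbol, which the authors did not normalize. Reads were aligned with STAR 2.5.2b to mm10, per the submitters' processing notes, whereas the program that counted them, its gene models and its use of strand are not given in the labels. Of the counts from 1 to under 20, 65.0% to 68.0% per library were even numbers, as happens when both mates of a read pair are counted, so that the counts exceed the independent fragments behind them. A deposited table of the authors' adjusted p-values for TG against WT was used only to look up the 44 genes.

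One model with 4 groups was fitted to all 8 libraries in edgeR 4.0.16 (R 4.3.3, limma 3.58.1), with filterByExpr, TMM scaling and the quasi-likelihood test, two-sided. Benjamini-Hochberg adjustment of the p-values ran over 15254 genes, and a gene was called below 0.05. The fit had 4 residual and 2.37 prior degrees of freedom and a common biological coefficient of variation of 0.507. The scripts were checked on simulated counts with less spread than these libraries, so the check does not speak to power here. Levels are TMM-scaled CPM, and errors are SD of 2 libraries or SE of a log2 fold change. Gene positions and exon lengths come from GENCODE M21 (GRCm38), which held all 44 genes, and promoter windows from RefSeq (GRCm38.p6). Tables and figures used Python 3.11.15, pandas 2.3.3, numpy 2.4.6 and matplotlib 3.10.9.

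The members, the lists around them and the tests were chosen with earlier results of these data known. Levels in every library are given for called members and for up to 3 members per role with the smallest p, with Pcna, Tk1 and E2f1 added after their values were seen. From other lists the genes with up to 6 smallest p per comparison, cyclin D and inhibitor genes are named. A few of these are not reported here. The alternatives were no filter on low counts, median-of-ratios size factors, a replicate block, each library left out, only the 4 libraries compared, DESeq2 1.42.0, and a fit without the 2 libraries richest in endothelial RNA.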

Additional observations from a re-analysis of the deposited data

Results flagged for a closer look

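For 2 of the 44 genes the genotypes were ordered in opposite ways in the 2 cell types, a pattern held by 1003 of all 15254 genes (6.58%). The members thus did not show it more often than genes at large. Pola1, the catalytic subunit of polymerase alpha, had both TG libraries below both WT libraries in Kupffer cells and both TG libraries above both WT libraries in MoM, with an interaction of 1.15 on the log2 scale (SE 0.30). Rrm2, the small subunit of ribonucleotide reductase, had the same order, with an interaction of 0.94 (SE 0.39). Neither passed edgeR's quasi-likelihood test of the difference (adjusted p = 0.626 for both). In MoM alone the log2 fold changes of TG over WT were 0.16 ± 0.21 for Pola1 and 0.37 ± 0.28 for Rrm2.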

How the results depend on the processing

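Members called in TG MoM against TG Kupffer cells, 6 in the report, numbered 5 with median-of-ratios size factors, 7 without a filter, 9 with the replicate block, 0 with only the 4 libraries compared, 19 with DESeq2 and 14 without the 2 libraries richest in endothelial RNA. They ranged from 0 to 9 when 1 library was left out. The 0 came without TG Kupffer replicate 1 or either library of WT Kupffer cells or TG MoM. The 6 called without TG Kupffer replicate 2 shared Uhrf1 and Rrm2 with the report. All genes called in TG were 0 with 4 libraries, 2580 with DESeq2, 2130 without both of these and 0 to 1026 when 1 library was left out. In WT, members called were 2 with the replicate block (E2f8 and Kif11), 4 with 4 libraries, 9 with DESeq2, 11 without both of these and 0 to 5 when 1 library was left out, and all genes called were 1585, 2832, 2677 and 0 to 1434 under the last 4 of these. For TG against WT, DESeq2 called 1 member (Pola1) and 259 genes in Kupffer cells and 141 genes in MoM. Leaving out 1 library gave 0 to 257 genes in Kupffer cells, the highest without TG Kupffer replicate 1, and 0 members in both cell types. For the interaction DESeq2 called 47 genes, and leaving out 1 library gave 0 to 83. The cause of these differences was not tested, beyond the fewer samples in some fits, where the lone library of a group is assumed to vary like the others. The 6 genes called in TG were positive under every alternative. Of single genes, the log2 fold change of Ccne2 in TG, when 1 library was left out, ranged from -0.094 without TG MoM replicate 2 to 0.73 without TG MoM replicate 1. Same-numbered libraries deviated together with correlations of 0.27, 0.13, -0.07 and 0.59 over the 4 comparisons, with only 2 pairs each, so the numbers are not shown to pair the samples. With 2 libraries per group, small changes cannot be called.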
